A study of Mus musculus with 6 samples.

Results

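The 9 genes described here are NRF2 pathway redox genes outside the glutathione transferases, namely Nfe2l2, Keap1, Nqo1, Hmox1, Gclc, Gclm, Txnrd1, Srxn1 and G6pdx. They were chosen by name, and each matched 1 row of a table of 54777 genes measured by bulk RNA sequencing of mouse liver. Wtap-HKO livers (genotype Wtapflox/flox Alb-Cre+/-) came from 3 mice and Wtap-flox livers (Wtapflox/flox without Cre) from 3 mice, all male mice of 8 weeks on normal chow, of strain C57BL/6 in the labels and C57BL/6J in the methods of the study. Both groups therefore carry floxed Wtap alleles, and only Wtap-HKO mice carry Cre recombinase, which the albumin promoter drives in hepatocytes. Values from bulk liver do not show whether other liver cells keep Wtap. Wtap encodes a regulatory subunit of the complex that writes N6-methyladenosine on RNA, and the comparison asks how the liver transcriptome differs when hepatocytes lose it.

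NRF2, the product of Nfe2l2, is a basic leucine zipper transcription factor that guards cells against electrophiles and oxidants. In unstressed cells KEAP1 holds NRF2 and presents it to a CUL3 ubiquitin ligase for degradation. Electrophiles modify cysteines of KEAP1, NRF2 then accumulates, pairs with a small MAF protein and binds antioxidant response elements (AREs) beside genes of detoxification, glutathione and thioredoxin metabolism and NADPH supply. Because this control acts largely on the protein, the mRNA levels below measure neither the amount nor the activity of NRF2. In liver the pathway is known for protection against drugs and bile acids.

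Sequences near the gene starts are shown first, since the ARE is the DNA feature that the target genes of NRF2 are known to share. The core TGACNNNGC was searched on both strands in RefSeq promoters of GRCm38.p6, which run from 250 bases before a gene's start to 50 bases after it. Of the 9 genes, 7 had a promoter in that table (not Hmox1 and Gclc), and 5 of the 7 held the core in at least 1 promoter. Over all 27025 genes with a promoter, 14.0% held it, and genes with several promoters have more chances of a match. The matches are printed 5′ to 3′ on the strand of the gene, with the core in capitals, and a core on the opposite strand reads as its reverse complement.
Nfe2l2 (chr2:75704879-75704913, gene strand, 240 bases before the start): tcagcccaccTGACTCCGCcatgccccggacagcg
Gclm (chr3:122245407-122245447, opposite strand, 134 bases before): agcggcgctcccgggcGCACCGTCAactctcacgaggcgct
Txnrd1 (chr10:82859098-82859138, opposite strand, 92 bases before 1 of its 3 listed starts): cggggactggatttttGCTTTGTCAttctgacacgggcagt
Srxn1 (chr2:152105536-152105573, opposite strand, 29 bases into the transcript): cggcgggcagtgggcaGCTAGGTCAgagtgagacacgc
G6pdx (chrX:74428913-74428953, opposite strand, 57 bases before): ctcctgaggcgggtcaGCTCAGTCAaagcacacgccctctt

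The AP-1 motif TGACTCA, which shares letters with the core, occurred in the promoters of 5.95% of genes and in that of 1 of the 7 members. Srxn1 held it at 2 places, both on the opposite strand and both outside the core shown above. They are printed because AP-1 and NRF2 sites are often alike.
Srxn1 (chr2:152105406-152105444, 102 bases before the start): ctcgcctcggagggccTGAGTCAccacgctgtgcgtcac
Srxn1 (chr2:152105463-152105501, 45 bases before the start): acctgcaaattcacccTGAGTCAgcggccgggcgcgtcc
Keap1 and Nqo1 had no match to either motif in this window. A match is a run of letters and not a measured binding site.

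The reads behind the deposited values numbered 15559250 to 18510477 per library, and all 9 genes passed the filter on low values. Wtap itself stood at 5.31 to 6.45 FPKM over the 6 livers a log2 difference of 0.10 ± 0.097 (SE) that did not pass limma's test (adjusted p = 0.440, exact permutation p = 0.3), but only exon 4 is floxed, so that a value over the whole gene checks neither the deletion nor the labels. Hepatocyte markers were plentiful in both groups, with summed levels of 27148 to 31536 FPKM in Wtap-HKO and 60940 to 68779 FPKM in Wtap-flox, and 7 of 8 were called lower. Of the markers of other cells that were tested, 6 of 9 macrophage and 5 of 6 monocyte and neutrophil markers were called higher. So were 4 of 6 stellate and fibroblast, 3 of 5 cholangiocyte, 2 of 6 endothelial and 1 of 4 T and NK cell markers. None in these lists was called lower, whereas 1 of 3 erythroid markers was. All these calls are on the deposited values, where 19.5% of all genes tested were called higher and 20.7% lower. In bulk liver RNA, a change in the number of cells of a type and a change in RNA per cell cannot be told apart. From other assays, the study reported steatosis, immune cell infiltration and fibrosis in livers of Wtap-HKO mice on normal chow. The deposited FPKM carry a scaling between libraries, and on the TPM scale, where every library has an equal total, the median log2 fold change of all genes was 0.56 in place of 0.0054.

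On the deposited scale 6 of the 9 genes were called, in both directions. Nqo1, Hmox1 and Nfe2l2 were higher in Wtap-HKO, whereas the glutathione synthesis genes Gclc and Gclm and the thioredoxin reductase gene Txnrd1 were lower. Srxn1, G6pdx and Keap1 were not called. Of the 9 genes 3 (33.3%) were thus called higher and 3 (33.3%) lower at an adjusted p under 0.05 by limma, where 19.5% of the 16547 genes tested were called higher and 20.7% lower (40.2% in all). The groups did not overlap in 4 members that were higher and 3 that were lower, against 54.2% of all genes without overlap (26.8% higher and 27.4% lower). The median log2 fold change of the 9 was 0.35, and that of all genes 0.0054. With 9 genes, shares of this size are not set apart from the background.

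**Figure D1:**
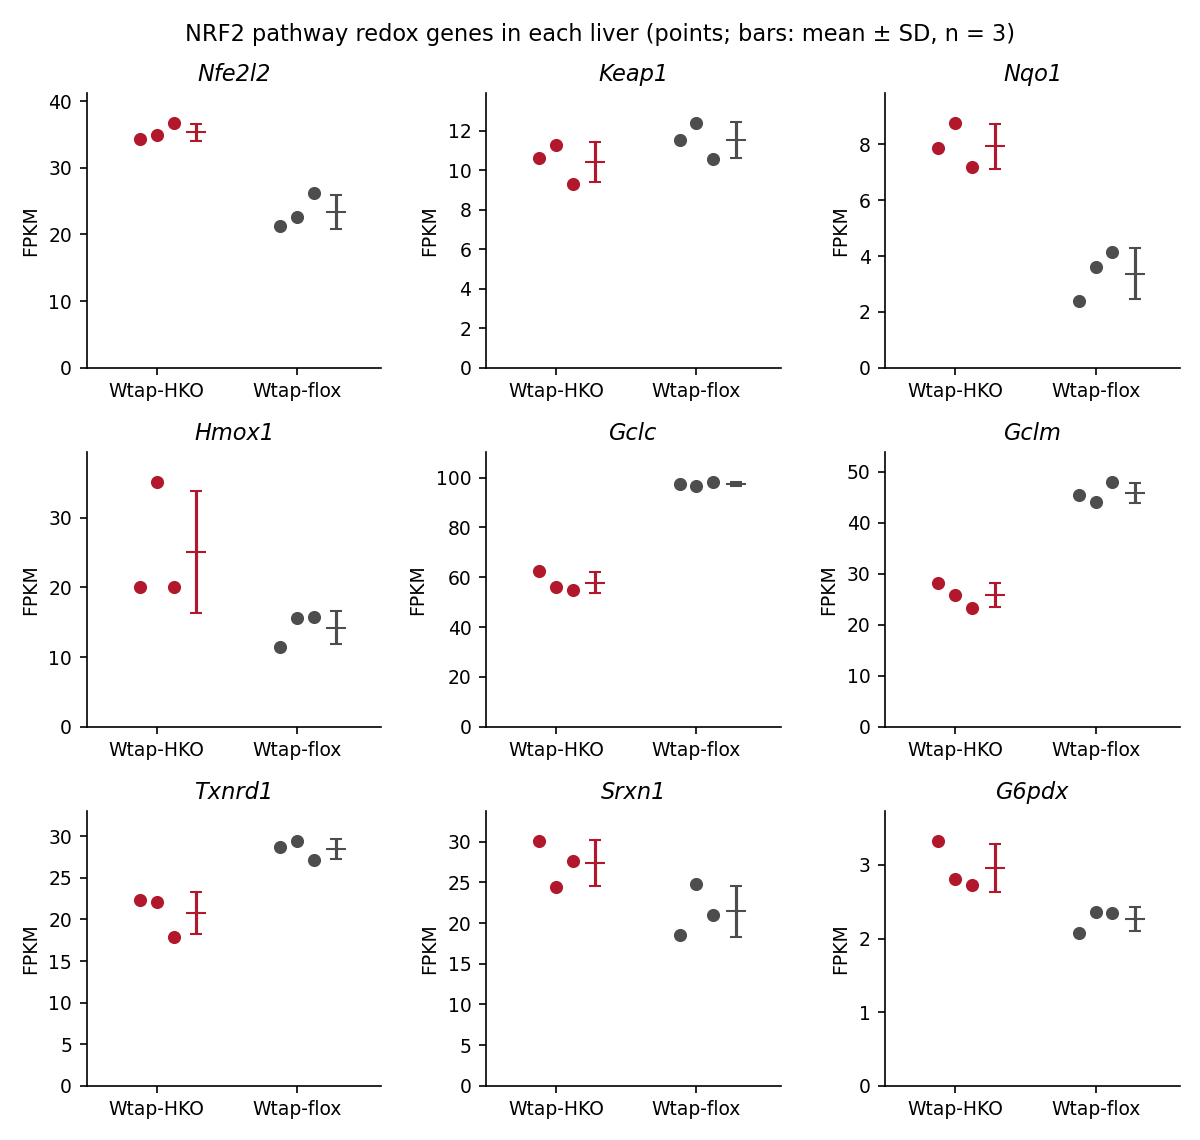
FPKM of the 9 genes in each liver, with Wtap-HKO (red) left of Wtap-flox (grey) in every panel and each vertical axis starting at 0. Points are single livers in the order of replicates 1 to 3, and bars give the mean ± SD (n = 3 each). Nfe2l2, Nqo1, Hmox1 and G6pdx were higher in every Wtap-HKO liver than in any Wtap-flox liver, Gclc, Gclm and Txnrd1 were lower, and Keap1 and Srxn1 overlapped.

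The transcription factor and its inhibitor were examined first. Nfe2l2 (ENSMUSG00000015839, GRCm38 chromosome 2, 75675513 to 75704641, minus strand) stood at 34.3, 34.8 and 36.7 FPKM in Wtap-HKO livers 1, 2 and 3, against 21.2, 22.6 and 26.2 FPKM in Wtap-flox livers 1, 2 and 3. Every Wtap-HKO liver was above every Wtap-flox liver, and the spread was narrow in Wtap-HKO, with a coefficient of variation of 3.61% against 10.9% in Wtap-flox. Nfe2l2 rose 1.51-fold, which is 0.60 ± 0.10 on the log2 scale (± SE here and below, 95% interval 0.36 to 0.84, adjusted p = 0.00412). Between 2733 and 2854 reads per library lay behind these values in Wtap-HKO and between 1047 and 1374 in Wtap-flox.

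Keap1 (ENSMUSG00000003308, chromosome 9, 21229730 to 21239361, minus strand), the adaptor that hands NRF2 to its ubiquitin ligase, stood at 10.6, 11.3 and 9.30 FPKM in Wtap-HKO and at 11.6, 12.4 and 10.6 FPKM in Wtap-flox. The groups overlapped. The log2 fold change was -0.14 ± 0.11 on the deposited scale (95% interval -0.40 to 0.11, adjusted p = 0.327), and 0.44 on the TPM scale, where it was called (adjusted p = 0.0102) and lay 0.13 below the median of all genes there.

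Among the enzymes of detoxification, Nqo1 changed most of the 9 genes in fold. NQO1 reduces quinones without forming radicals, and its gene is a known target of NRF2. Nqo1 (ENSMUSG00000003849, chromosome 8, 107388225 to 107403206, minus strand) stood at 7.86, 8.77 and 7.18 FPKM in Wtap-HKO livers, against 2.38, 3.60 and 4.14 FPKM in Wtap-flox livers. The lowest Wtap-HKO liver was above the highest Wtap-flox liver, and Nqo1 rose 2.32-fold with a log2 fold change of 1.22 ± 0.20 (95% interval 0.74 to 1.70, adjusted p = 0.00403). It rests on 222 to 294 reads per library in Wtap-HKO and on 48 to 89 in Wtap-flox, and its coefficient of variation was 10.1% in Wtap-HKO and 26.7% in Wtap-flox.

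Hmox1 (ENSMUSG00000005413, chromosome 8, 75093621 to 75100589, plus strand) encodes the inducible heme oxygenase, which opens heme to biliverdin, iron and carbon monoxide and is abundant in Kupffer cells, the resident macrophages of liver. It stood at 20.0, 35.2 and 20.1 FPKM in Wtap-HKO livers, against 11.4, 15.6 and 15.7 FPKM in Wtap-flox livers. The groups did not overlap, but Wtap-HKO liver 2 was far above the other two, which gave a coefficient of variation of 34.8% in Wtap-HKO against 17.1% in Wtap-flox. Hmox1 rose with a log2 fold change of 0.77 ± 0.24 (95% interval 0.19 to 1.35, adjusted p = 0.0434), a call close to the threshold. It was lost without any 1 of the 6 libraries (adjusted p between 0.0521 and 0.136), and the log2 fold change was 0.50 without Wtap-HKO replicate 2 (adjusted p = 0.0606).

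Macrophage markers were also higher in sum in every Wtap-HKO liver. The 9 of them summed to 331, 484 and 367 FPKM in Wtap-HKO livers 1, 2 and 3, against 197, 214 and 237 FPKM in Wtap-flox livers, so that the liver highest in Hmox1 was also highest in these markers. Of the 9 markers 7 had their highest Wtap-HKO value in liver 2, among them the scavenger receptor gene Marco with 31.6, 71.6 and 46.7 FPKM in Wtap-HKO and 8.28, 12.4 and 9.38 FPKM in Wtap-flox. Cd68 and Csf1r did not, and Cd68, a lysosomal protein of macrophages, stood at 31.6, 25.4 and 35.8 FPKM in Wtap-HKO and at 7.96, 8.55 and 9.60 FPKM in Wtap-flox. Cd163, Clec4f and Timd4 were not called. None of the 9 markers was at 0 in all livers, and their part in the rise of Hmox1 was not tested. The cholangiocyte markers summed to 262, 75.7 and 194 FPKM in Wtap-HKO and to 59.8, 39.7 and 63.4 FPKM in Wtap-flox. Most of these sums was Spp1, at 241, 69.1 and 180 FPKM in Wtap-HKO and 54.8, 36.4 and 57.7 FPKM in Wtap-flox. The sum had its lowest Wtap-HKO value in liver 2, where Nqo1 was highest, and the part of these markers in the rise of Nqo1 was not tested.

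The subunits of glutamate-cysteine ligase, which makes the first bond of glutathione and sets the pace of its synthesis, both fell on the deposited scale. Gclc (ENSMUSG00000032350, chromosome 9, 77754535 to 77794485, plus strand), the catalytic subunit, stood at 62.6, 56.0 and 54.8 FPKM in Wtap-HKO livers, against 97.5, 96.5 and 98.3 FPKM in Wtap-flox livers. The Wtap-flox livers lay close together, with a coefficient of variation of 0.920% against 7.29% in Wtap-HKO, and the groups were far apart. Gclc fell to 0.593 of its Wtap-flox level, a log2 fold change of -0.75 ± 0.085 (95% interval -0.96 to -0.55, adjusted p = 9.89e-04).

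Gclm (ENSMUSG00000028124, chromosome 3, 122245557 to 122270732, plus strand) encodes the modifier subunit, which raises the efficiency of the catalytic one. It stood at 28.2, 25.8 and 23.4 FPKM in Wtap-HKO livers, against 45.5, 44.1 and 48.0 FPKM in Wtap-flox livers. The groups did not overlap, and Gclm fell with a log2 fold change of -0.83 ± 0.095 (95% interval -1.06 to -0.60, adjusted p = 0.00106). With 2929 to 4948 reads per library in Wtap-HKO and 3719 to 5140 in Wtap-flox, the pair was the most deeply read of the 9 genes. Neither fall was called on the TPM scale, where the log2 fold changes were -0.17 for Gclc and -0.25 for Gclm (adjusted p = 0.186 and 0.0871), which lie 0.73 and 0.81 below the median of all genes there.

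Of the enzymes that restore oxidised proteins, Txnrd1 was called on the deposited scale and Srxn1 was not. Txnrd1 (ENSMUSG00000020250, chromosome 10, 82833951 to 82897712, plus strand), the selenoprotein that reduces cytosolic thioredoxin with NADPH, stood at 22.4, 22.1 and 17.9 FPKM in Wtap-HKO livers, against 28.7, 29.5 and 27.1 FPKM in Wtap-flox livers. Every Wtap-HKO liver was below every Wtap-flox liver. Txnrd1 fell on the deposited scale with a log2 fold change of -0.45 ± 0.11 (95% interval -0.71 to -0.19, adjusted p = 0.0165), but stood at 0.13 on the TPM scale (adjusted p = 0.334). The call was also lost without Wtap-flox replicate 1 (adjusted p = 0.0549) or Wtap-flox replicate 2 (adjusted p = 0.0568).

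Srxn1 (ENSMUSG00000032802, chromosome 2, 152105516 to 152111376, plus strand) encodes sulfiredoxin, which rescues overoxidised peroxiredoxins. It stood at 30.1, 24.5 and 27.7 FPKM in Wtap-HKO livers and at 18.6, 24.8 and 21.1 FPKM in Wtap-flox livers. Wtap-flox liver 2 reached into the Wtap-HKO range. The log2 fold change of 0.36 ± 0.13 (95% interval 0.041 to 0.67) did not pass the test (adjusted p = 0.0710). It passed without Wtap-flox replicate 2 (adjusted p = 0.0417) and on the TPM scale (0.94, adjusted p = 0.00231).

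G6pdx (ENSMUSG00000031400, chromosome X, 74409483 to 74429194, minus strand) encodes glucose-6-phosphate dehydrogenase, the entry enzyme of the pentose phosphate pathway and a source of NADPH. It was the lowest of the 9 genes, with 3.33, 2.81 and 2.72 FPKM in Wtap-HKO livers and 2.08, 2.36 and 2.35 FPKM in Wtap-flox livers. The groups did not overlap, yet the log2 fold change of 0.35 ± 0.13 (95% interval 0.054 to 0.66) did not pass the test (adjusted p = 0.0630). It passed with protein-coding genes alone (adjusted p = 0.0449) and on the TPM scale (0.94, adjusted p = 0.00219). The value of G6pdx is uncertain, because over its whole span of 19712 bases the table places Ikbkg on the opposite strand, at 10.7 FPKM in Wtap-HKO and 15.5 FPKM in Wtap-flox, and the strand setting of the counting is not given in the sources used here. The near-identical autosomal copy G6pd2 was listed at 0 in all 6 libraries.

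**Figure D2:**
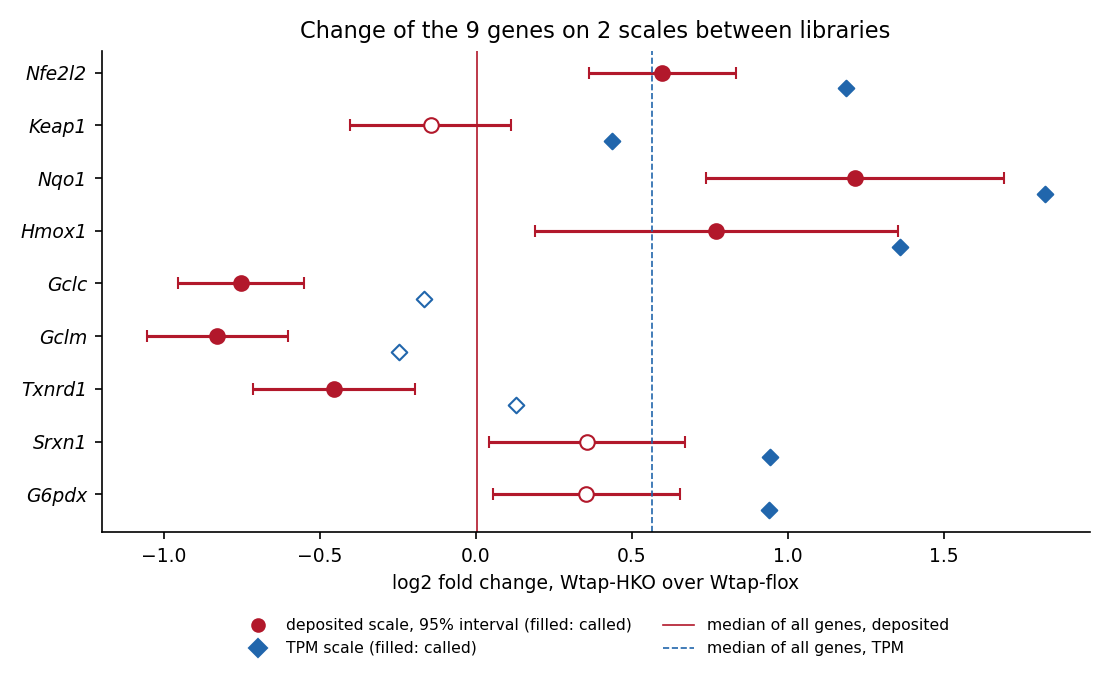
Log2 fold change of each gene, Wtap-HKO over Wtap-flox, on the deposited scale (red circles with 95% intervals) and on the TPM scale (blue diamonds), where filled symbols passed the test at an adjusted p under 0.05. Vertical lines mark the median of all genes on each scale, 0.0054 and 0.56. Nfe2l2, Nqo1, Hmox1, Srxn1 and G6pdx lay right of the median line on either scale and Keap1, Gclc, Gclm and Txnrd1 left of it.

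The scale between libraries changed which members were called. On the TPM scale 6 of the 9 genes were called higher and 0 lower (also 0 lower at an unadjusted p under 0.05 by limma), where 48.8% of all genes were called higher and 6.02% lower. Since the TPM scale shifts all genes nearly alike, values relative to the median gene are close on both scales by construction. Relative to that median, Nqo1 stood at 1.21 on the deposited scale and at 1.26 on the TPM scale, and Txnrd1 at -0.46 and -0.44. Nfe2l2 stood at 0.59 and 0.62.

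Ratios of 2 genes within a library do not depend on any scaling between libraries. The 5 ratios were fixed with earlier results of these data known, and with 3 livers against 3 the exact permutation test cannot go below p = 0.1. Gclm to Gclc was 0.450, 0.461 and 0.427 in Wtap-HKO livers and 0.467, 0.457 and 0.489 in Wtap-flox livers. The groups overlapped (exact two-sided p = 0.2, adjusted over 5 ratios 0.2), with a difference of -0.078 on the log2 scale, against log2 fold changes of -0.75 and -0.83 for the subunits themselves.

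Nfe2l2 to Keap1 was 3.22, 3.09 and 3.95 in Wtap-HKO livers, against 1.84, 1.82 and 2.47 in Wtap-flox livers. The Nfe2l2 transcript was thus higher relative to that of Keap1 in every Wtap-HKO liver than in any Wtap-flox liver, by 1.68-fold between groups. Srxn1 to Txnrd1 was 1.35, 1.11 and 1.55 in Wtap-HKO livers, against 0.646, 0.841 and 0.776 in Wtap-flox livers. Sulfiredoxin therefore had more transcript per length than thioredoxin reductase in each Wtap-HKO liver and less in each Wtap-flox liver.

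Nqo1 to Nfe2l2 was 0.229, 0.252 and 0.195 in Wtap-HKO livers, against 0.112, 0.159 and 0.158 in Wtap-flox livers. This ratio was 1.59-fold higher in Wtap-HKO, so that Nqo1 rose by more than Nfe2l2 in fold. G6pdx to Pgd, an NADPH-yielding enzyme further down the same pathway, was 0.121, 0.109 and 0.123 in Wtap-HKO livers, against 0.288, 0.344 and 0.470 in Wtap-flox livers. For each of these 4 ratios the groups did not overlap and the exact two-sided p = 0.1 was the smallest that the design allows (adjusted 0.125).

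**Figure D3:**
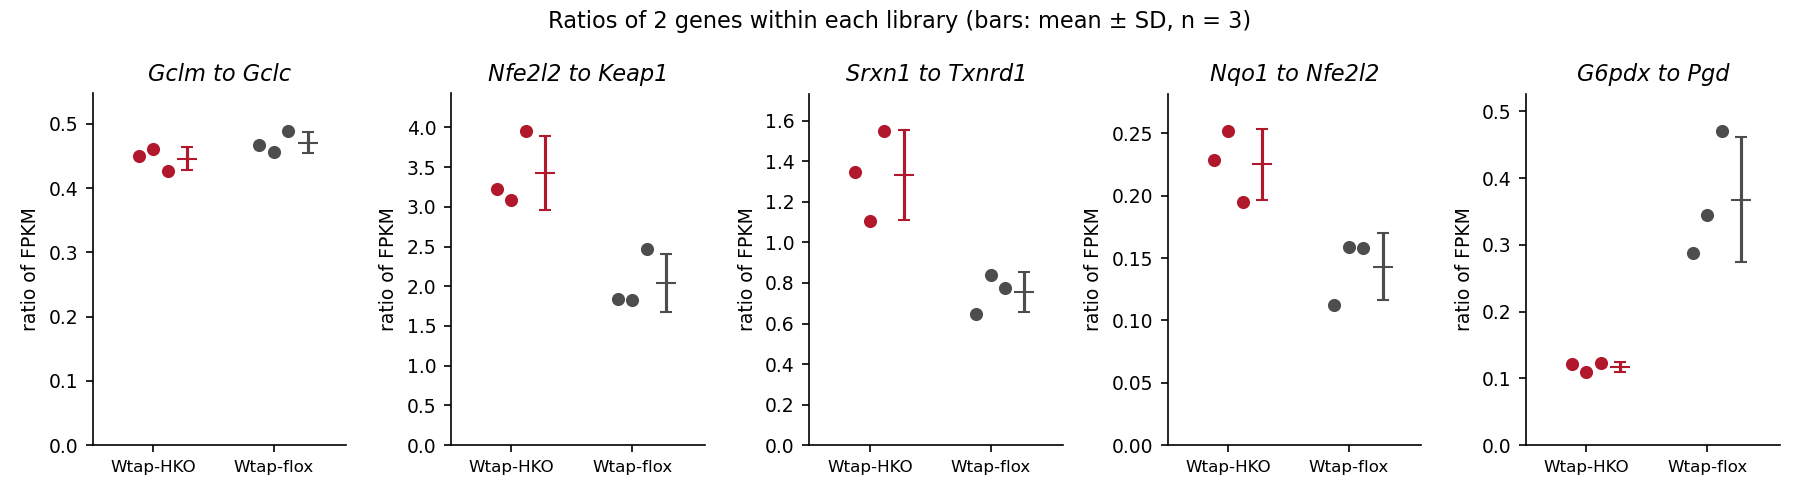
Ratio of FPKM of 2 genes in each library, with Wtap-HKO (red) left of Wtap-flox (grey), each vertical axis starting at 0, and bars for the mean ± SD (n = 3 each). The points overlap for Gclm to Gclc and are apart for the other 4 ratios, of which G6pdx to Pgd is lower in Wtap-HKO.

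The order of the 9 levels per length also differed between the groups. Gclc was highest in both, at 57.8 ± 4.22 FPKM in Wtap-HKO and 97.4 ± 0.897 FPKM in Wtap-flox (SD, n = 3 each), and Keap1, Nqo1 and G6pdx were the lowest in that order in both. In Wtap-HKO Nfe2l2 was second at 35.3 ± 1.27 FPKM, and Srxn1, Gclm, Hmox1 and Txnrd1 followed, whose neighbouring ranges overlapped at each step. In Wtap-flox Gclm was second at 45.9 ± 1.99 FPKM followed by Txnrd1 at 28.4 ± 1.19 FPKM, and the ranges of Gclc, Gclm and Txnrd1 did not overlap those of their neighbours. The ranges of Nfe2l2 and Srxn1 overlapped there, as did those of Hmox1 and Keap1. Within the genes tested, Nqo1 moved to the 74.0th percentile of levels in Wtap-HKO, against the 54.6th in Wtap-flox.

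The 3 protein-coding genes whose pattern over the 6 livers was nearest to that of Nqo1, by Euclidean distance of centred log2 values among 10320 genes, were Tmc8, Igsf11 and Csf2ra, at distances of 0.21, 0.22 and 0.23. Csf2ra, a subunit of the receptor for the growth factor GM-CSF on myeloid cells, stood at 10.3, 11.1 and 10.5 FPKM in Wtap-HKO and at 3.54, 4.63 and 5.20 FPKM in Wtap-flox. All 3 shared with Nqo1 a low value in Wtap-flox liver 1, which their choice by nearness over the same 6 livers favours.

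A further 58 genes of the pathway were listed by role, of which 53 passed the filter on low values. Of these, 10 (18.9%) rose and 15 (28.3%) fell, where 19.5% and 20.7% of all genes did, and their median log2 fold change was -0.13. On the TPM scale 31 were higher and 4 lower, where 48.8% and 6.02% of all genes were. The share that rose on the deposited scale was close to the background, and medians differed in sign between roles.

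Detoxification and export held most of the rises, with 8 of 16 genes called higher and 2 lower on the deposited scale (median 0.59). The shares of all genes there were 19.5% higher and 20.7% lower. Abcc4, an export pump for conjugates and bile acids in the basolateral membrane of hepatocytes, stood at 5.80, 8.40 and 6.63 FPKM in Wtap-HKO livers, against 0.325, 0.243 and 0.554 FPKM in Wtap-flox livers. It rose 12.6-fold (log2 fold change 3.66 ± 0.24, adjusted p = 2.16e-04), and every Wtap-HKO liver was above 5 FPKM. Cbr3, a carbonyl reductase, stood at 12.8, 9.02 and 6.05 FPKM in Wtap-HKO livers, against 0.553, 0.677 and 0.634 FPKM in Wtap-flox livers, a log2 fold change of 3.47 ± 0.26 (adjusted p = 2.97e-04). Its neighbour on chromosome 16, Cbr1, rose to 93.1 ± 17.4 FPKM in Wtap-HKO, against 32.1 ± 7.32 FPKM in Wtap-flox. The other genes that rose were Ptgr1, Akr1b8, Htatip2, Ugdh and Abcc1, and those that fell were Aldh1a1 and Aox1, all 7 named after their values were seen. On the TPM scale Aox1 was not called (-0.21, adjusted p = 0.437) and the other 6 kept their direction and call.

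NADPH supply went both ways. Pgd, 6-phosphogluconate dehydrogenase of the pentose phosphate pathway, stood at 27.5, 25.8 and 22.2 FPKM in Wtap-HKO livers, against 7.20, 6.87 and 4.99 FPKM in Wtap-flox livers. It rose 3.90-fold (log2 fold change 1.96 ± 0.16, adjusted p = 3.65e-04). The cytosolic enzymes that draw NADPH from malate and isocitrate fell, Me1 to 28.2 ± 5.61 FPKM in Wtap-HKO, against 55.3 ± 3.52 FPKM in Wtap-flox, and Idh1 to 71.5 ± 7.73 FPKM, against 160 ± 16.3 FPKM. On the deposited scale (of all genes, 19.5% higher and 20.7% lower), these 3 were the called genes of the 7 tested in this role. On the TPM scale 5 were called higher and 2, Me1 and Idh1, lower, where 48.8% and 6.02% of all genes were.

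Among the regulators of the pathway the calls depended on the scale. Of all genes, 19.5% were called higher and 20.7% lower on the deposited scale, against 48.8% and 6.02% on the TPM scale. On the deposited scale, of 14 regulators 8 fell and 0 rose by limma (median -0.33, with 1 higher at an unadjusted p under 0.05 and 1 called higher with voom on rebuilt reads, both times the small MAF gene Mafk, named after its values were seen), but on the TPM scale 6 were higher and 1 lower. The small MAF partners Maff and Mafg were below Wtap-flox in every Wtap-HKO liver, with log2 fold changes of -0.93 ± 0.15 and -0.72 ± 0.10 (adjusted p = 0.00378 and 0.00206), neither called on the TPM scale. Syvn1, an ubiquitin ligase of the endoplasmic reticulum that can also target NRF2, fell by 0.99 on the log2 scale and was the 1 regulator called lower on both scales. The other 5 regulators that fell, named after their values were seen, were Nfe2l1, Bach1, Cul3, Rbx1 and Gsk3b, among which Cul3 and Rbx1 are parts of the ligase that KEAP1 serves and Bach1 is a repressor at AREs. Nfe2l1 was instead called higher on the TPM scale.

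In glutathione supply, Slc3a2, the heavy chain that cystine and other amino acid transporters share, rose to 50.6 ± 19.7 FPKM in Wtap-HKO, against 12.8 ± 0.852 FPKM in Wtap-flox (log2 fold change 1.90 ± 0.26, adjusted p = 0.00198), and the glutaredoxin gene Glrx fell with -0.80 ± 0.17 (adjusted p = 0.0104), which was not called on the TPM scale (-0.23, adjusted p = 0.321). Prdx1, a peroxiredoxin served by thioredoxin and sulfiredoxin, was the 1 gene of 6 in the thioredoxin system that was called on the deposited scale, at 215 ± 13.3 FPKM in Wtap-HKO and 323 ± 10.8 FPKM in Wtap-flox (adjusted p = 0.00368), but stood at 0.00050 on the TPM scale (adjusted p = 0.998), where 2 other genes of this role were called higher. Of 6 genes of heme and iron handling, Blvrb, a biliverdin reductase, was the 1 called on the deposited scale, with a log2 fold change of -0.50 ± 0.14 (adjusted p = 0.0261). That call was lost without Wtap-HKO replicate 3 or Wtap-flox replicate 1 or 2 (adjusted p = 0.0856 at most). On the TPM scale the value was 0.089 and 4 other genes of this role were called higher, where 48.8% of all genes were. On the deposited scale 40.2% of all genes tested were called.

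**Figure D4:**
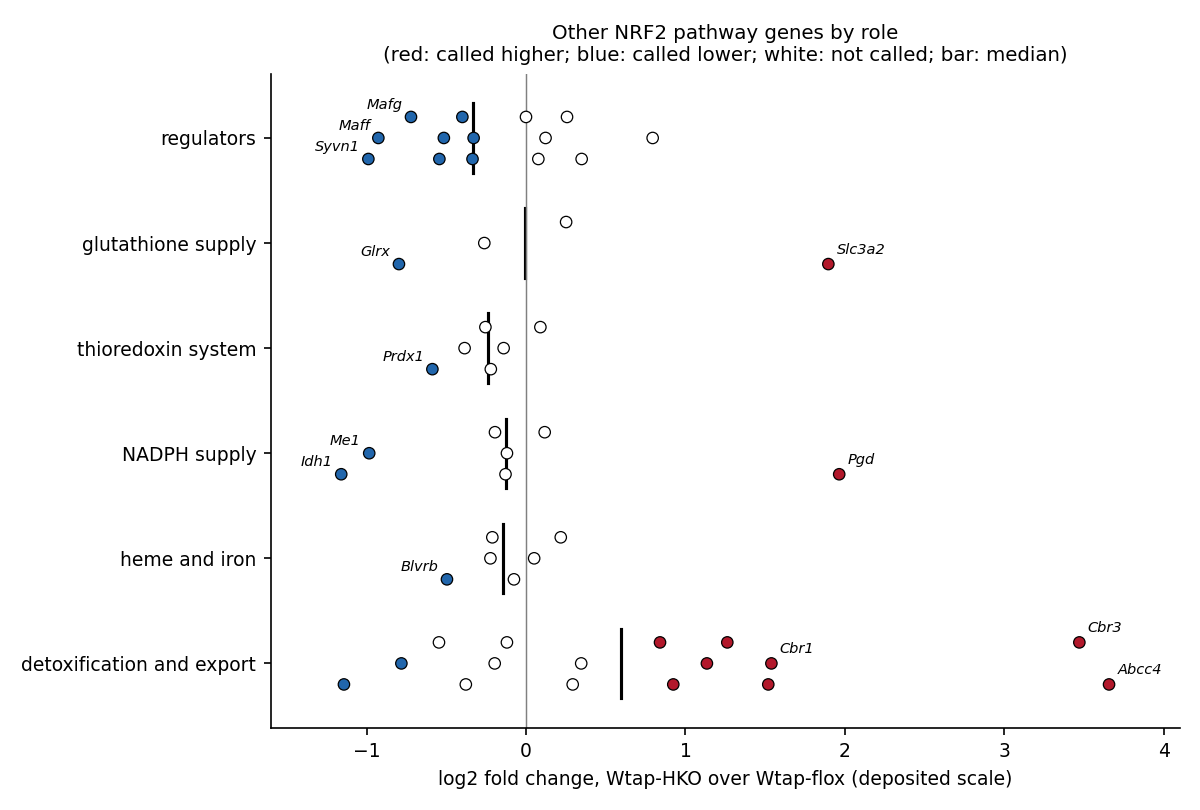
Log2 fold change (Wtap-HKO over Wtap-flox, deposited scale) of the 53 tested genes of the wider pathway, 1 row per role, with genes called higher in red, genes called lower in blue and others in white, and a bar at the median of each role. Detoxification and export has a median of 0.59 with Abcc4 and Cbr3 farthest right, and the regulators have a median of -0.33 with no gene called higher.

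The ARE core occurred in a promoter of 12 of the 51 wider pathway genes that had one, where 14.0% of all genes with a promoter held it. Genes with it stood on either side. Among the 13 wider pathway genes named by rule, 6 held it. They were picked for their changes in these data, and several have more than 1 promoter, so this count tests nothing about the core. A match of Abcc4, 1 of its 2, and the match of Prdx1 are shown with the core in capitals. Abcc4 had the largest rise, and Prdx1 was called lower on the deposited scale but not on the TPM scale.
Abcc4 (chr14:118706220-118706260, opposite strand, 25 bases before the first listed start): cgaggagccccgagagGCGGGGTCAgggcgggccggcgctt
Prdx1 (chr4:116685450-116685490, opposite strand, 133 bases before the start): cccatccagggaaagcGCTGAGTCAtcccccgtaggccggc
In Prdx1 the core contains the AP-1 motif, an overlap found in 149 of 32851 promoters. Of the members shown earlier, Gclm and Txnrd1 hold a core and fell on the deposited scale, and Nfe2l2 holds one and rose. Srxn1 and G6pdx hold one and were not called on that scale. With none in this window, Nqo1 rose and Keap1 was not called.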

How the data were processed

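Livers of 3 Wtap-HKO and 3 Wtap-flox mice, 1 library each, were compared, with groups and replicate numbers from the sample titles. The authors aligned paired-end reads to GRCm38.p6 with TopHat2, counted reads on genes with HTSeq (version 0.6.1), and deposited gene-level FPKM. Neither the strand setting nor the tool that computed FPKM was found in those sources, the labels and the study's methods. FPKM times gene length gave whole reads for all values above 0 within 0.01 reads. The divisor behind FPKM was 1.17 to 1.24 times the reads in Wtap-HKO and 0.834 to 0.846 times in Wtap-flox.

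Log2(FPKM + 0.2) was tested with limma 3.58.1 (eBayes with trend, R 4.3.3), two-sided, for 16547 genes averaging 0.2 FPKM or more over the libraries, with Benjamini-Hochberg adjustment over all of them. Calls were made below an adjusted p of 0.05, and fold changes on this scale understate the change of low genes. The fit was tested on simulated data in which few genes changed and no scale difference between the groups was set. That test therefore does not bear on the choice of scale. The members and lists were chosen with earlier results of these data known. In each role the rule names at most 3 called genes of the largest change with a mean of at least 1 FPKM. Alternatives were other pseudocounts and filters, the TPM scale, median-of-ratios scaling, no trend, a replicate block, voom on rebuilt reads, protein-coding genes alone and leaving out each library. Python 3.11.15 and matplotlib 3.10.9 made tables and figures.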

Additional observations from a re-analysis of the deposited data

How the results depend on the processing

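Of 144 alternative fits of the 9 genes, 126 kept direction and call, 12 lost a call, 4 gained one and 2 turned. Median-of-ratios scaling could hardly move a call, because its factors were 1.0056 to 1.0059 in all 6 libraries of the deposited values. The tally counts such a fit equally with the TPM scale. On the TPM scale Keap1 (0.44) and Txnrd1 (0.13) turned, Gclc (-0.17) and Gclm (-0.25) lost the call, and Srxn1 (0.94), G6pdx (0.94) and Wtap (0.68) gained it, which follows from the shift of all genes by 0.56. There 6 members were higher and 0 lower, 31 and 4 of the wider pathway, and 8074 and 996 of all genes, against 3222 and 3431 as deposited. Prdx1 (0.00050) and Blvrb (0.089) turned too. Hmox1 (0.77) lost its call with no low-value filter (adjusted p = 0.0752) or without the trend (adjusted p = 0.0669), and G6pdx (0.35) gained one with protein-coding genes alone. The cause was not tested. Leaving out 1 library gave log2 fold changes of 0.50 to 0.91 for Hmox1, -0.51 to -0.35 for Txnrd1 and 0.26 to 0.46 for Srxn1, 2 to 3 members higher and 2 to 3 lower, and 2143 to 2978 genes higher in all, the lowest without Wtap-HKO replicate 3. Same-numbered livers correlated in their deviations by 0.052, 0.063 and 0.11, each best with its own number, a hint of pairing that the labels do not give. With the replicate block 3 members were higher and 3 lower, as without it, and the wider pathway had 11 higher and 19 lower. Depth limits Nqo1 and G6pdx most, with at least 48 and 83 reads per library.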

Other observations

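Of the 5 pathway genes under the filter on low values, 2 were picked out after their values were seen. The others were Ggt1, whose groups overlapped, and G6pd2 and Aldh3a1, at 0 in all libraries. Slc7a11, the light chain that forms the cystine importer with Slc3a2, had 45, 2 and 25 reads in Wtap-HKO livers 1, 2 and 3, against 0, 1 and 1 reads in Wtap-flox livers, a ratio of 23.6 after scaling with a 95% exact binomial interval of 6.30 to 199 for counting error only. Gpx2, a glutathione peroxidase of epithelial cells, had 32, 16 and 14 reads in Wtap-HKO livers, against 0, 1 and 0 reads in Wtap-flox livers, a ratio of 40.7 (7.03 to 1632). Wtap-HKO liver 2, with 2 reads of Slc7a11, was also the Wtap-HKO liver lowest in summed cholangiocyte markers. It was likewise lowest in the sums of stellate and fibroblast, erythroid, and T and NK cell markers. The sums of hepatocyte, macrophage, monocyte and neutrophil, and endothelial markers were lowest in another Wtap-HKO liver. The part of any of these cells was not tested.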
